A study of Mus musculus with 8 samples.

Results

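The genes of polyamine synthesis and turnover were examined in acute myeloid leukaemia (AML) cells from mice given vehicle or AG636. AG636 inhibits dihydroorotate dehydrogenase (DHODH), an enzyme of pyrimidine synthesis. The group holds 10 of the 54838 genes in the count table: Odc1, Srm, Sms and Amd1 of synthesis, Sat1, Paox and Smox of catabolism, and Oaz1, Oaz2 and Azin1 of antizyme control. Membership was set by gene name and role and by no threshold on a measured value, although earlier results of these data were known when the group was chosen. All 10 were found by their Ensembl identifier and all 10 passed the filter on low counts.

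The leukaemia carried the RUNX1-RUNX1T1 fusion on a C57BL/6 background and was grown by transplantation into Ptprca recipients. The labels describe the recipients as irradiated at a sub-lethal dose, whereas the methods of the study name irradiation for its other leukaemia models and not for this one. The groups were Vehicle (4 samples) and AG636 (4 samples, 100 mg/kg by gavage, b.i.d.), and both groups shared the fusion, the strain and the host. A figure legend of the study describes treatment for 1 day and a sort of cKit+CD11b- cells, whereas its main text gives the sorted cells of this model as cKit high. The labels name bone marrow and spleen without assigning samples to either, and they do not say whether every sample was a separate mouse. The study's own account gives fewer mice than samples in each group, so p-values may measure in part the spread between samples of the same animal.

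Polyamines (putrescine, spermidine and spermine) are small cations that bind RNA and DNA and are kept high in growing cells. Ornithine decarboxylase makes putrescine, and spermidine synthase and spermine synthase lengthen it with aminopropyl groups taken from decarboxylated S-adenosylmethionine. Antizymes shut this pathway down when polyamines are plentiful, acetylation and oxidation turn the products back, and spermidine is also the donor for hypusine, the modified residue of the translation factor eIF5A.

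AG636 libraries held 6120030 to 6610360 counts and Vehicle libraries 6586446 to 7162036 (two-sided exact permutation p = 0.0571), of which 0.202 to 0.217% fell on the 10 genes. No pair of replicates agreed within sampling noise (chi-square per degree of freedom 3.69 to 22.6), and Vehicle sample 4 stood farther from the other Vehicle samples (at least 8.52) than these did from each other (3.69 to 4.27). Of the progenitor markers, Kit (1022 to 1580 counts), Myb and Runx1 were present in every sample, whereas Ptprc, which encodes CD45, had 13 to 64 counts, Mpo 3 to 33, and Cd34 16 to 82 in Vehicle and 28 to 32 in AG636 samples 1, 2 and 4, with 223 in AG636 sample 3. Runx1t1 had 69 to 151 counts. All 7 progenitor markers had counts, and their summed level was 840 to 927 CPM (counts scaled to the total of each library) in Vehicle and 990 to 1175 in AG636. These sums carry none of the further library scaling used for gene levels below. Each of the 7 markers on its own overlapped between groups, with Kit at 151 to 171 CPM in Vehicle and 160 to 258 in AG636. All 8 erythroid markers also had counts, at a summed 2304 to 5885 CPM in Vehicle and 4896 to 6525 in AG636. The other lists had all their genes detected, at 13.5 to 34.3 against 22.4 to 108 CPM for 6 B cell genes, 6.62 to 10.8 against 6.12 to 21.8 for 9 T and NK cell genes, 41.0 to 93.7 against 17.9 to 193 for 9 mature myeloid genes and 3.86 to 7.14 against 4.08 to 11.7 for 6 macrophage genes (Vehicle against AG636). Within AG636, the mature myeloid sum was 17.9 and 22.5 CPM in samples 1 and 3, and 148 and 193 CPM in samples 2 and 4. The part of these cell types in the results was not tested. Fewer cells of a type and less RNA per cell cannot be told apart in bulk samples.

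Of the 10 polyamine genes, 3 fell in AG636 and none rose: Srm, Odc1 and Azin1. Over all 10911 genes tested, 14.0% were called in either direction, 8.49% lower and 5.47% higher. Levels of genes are given from here on as CPM on library sizes scaled by TMM factors. The median log2 fold change of the 10 genes was −0.42, against −0.01 over all tested genes. By role, 2 of 4 synthesis genes fell and all 4 had negative fold changes (median −0.60), 1 of 3 antizyme control genes fell, and 0 of 3 catabolic genes passed. In 5 genes (Odc1, Srm, Amd1, Azin1 and Paox) every AG636 sample lay below every Vehicle sample, a pattern that 12.9% of all tested genes showed. Without Vehicle sample 4, which stood apart within its group, Srm, Odc1 and Azin1 were still called lower, at log2 fold changes of −1.07, −0.49 and −0.55.

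**Figure D1:**
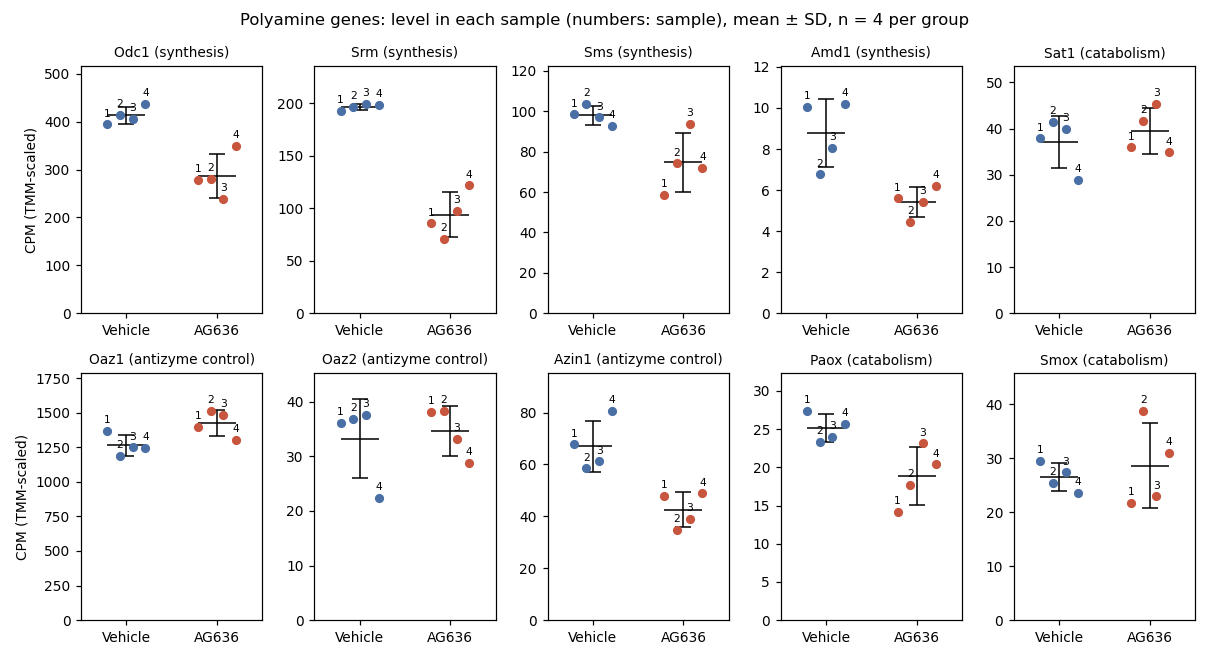
Level of each polyamine gene in each sample, in CPM scaled by TMM factors (linear axis from 0), with points for samples, numbered within their group, and bars for the mean ± SD of 4 samples. Srm, Odc1, Azin1, Amd1 and Paox show no overlap between groups. The AG636 points of Srm, Odc1, Sms, Paox, Smox and, by little, Oaz1 are spread more widely than the Vehicle points.

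Odc1 (ENSMUSG00000011179, GRCm38 chr12:17544794-17551505, + strand) encodes ornithine decarboxylase, the first and most tightly regulated enzyme of the pathway. Its level was 395, 415, 406 and 437 CPM in Vehicle samples 1 to 4 and 279, 280, 239 and 350 CPM in AG636 samples 1 to 4. Every AG636 sample was below the lowest Vehicle sample, with AG636 sample 4 the nearest to it. Odc1 fell from 413 ± 17.9 to 287 ± 46.2 CPM (SD, n = 4), to 68.9% of Vehicle (log2 fold change −0.54, SE 0.11, limma-voom adjusted p = 0.0110). A small RNA gene, Gm22748, lies in an intron of Odc1 with 0 shared exonic bases.

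The promoter of Odc1 is shown because this gene, the regulated entry step, fell. Window 1 of Sms is shown because it held the only E-box in the windows searched. RefSeq windows of 250 bases before to 50 bases after a start (GRCm38.p6) were found for 8 of the 10 genes, 10 windows in all, and Srm and Azin1 had no entry. They were searched for the E-box CACGTG, the sequence that MYC family factors bind, and for the GC box GGGCGG, on both strands, and the matches stand in capitals (the GC box also as its reverse complement CCGCCC).
Odc1, chr12:17544623-17544922, + strand: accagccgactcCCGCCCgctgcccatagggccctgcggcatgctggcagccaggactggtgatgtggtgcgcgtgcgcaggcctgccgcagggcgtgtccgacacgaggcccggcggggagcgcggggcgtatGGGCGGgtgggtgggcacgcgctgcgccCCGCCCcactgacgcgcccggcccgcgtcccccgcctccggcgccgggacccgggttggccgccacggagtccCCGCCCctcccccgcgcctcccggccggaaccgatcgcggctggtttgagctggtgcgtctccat
Sms, window 1, chrX:157492238-157492537, − strand: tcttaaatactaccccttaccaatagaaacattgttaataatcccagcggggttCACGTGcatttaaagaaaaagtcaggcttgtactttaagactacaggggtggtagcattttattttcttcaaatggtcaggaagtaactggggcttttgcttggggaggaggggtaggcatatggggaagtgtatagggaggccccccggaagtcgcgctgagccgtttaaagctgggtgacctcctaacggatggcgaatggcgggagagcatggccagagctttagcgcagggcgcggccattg
The E-box occurred in 1 of the 8 genes, in this Sms window, and in 7.15% of all 32817 windows. Sequence outside the windows, introns among it, and that of Srm and Azin1 was not searched. Window 2 of Sms (chrX:157491319-157491618) had no E-box and 4 GC boxes. The GC box occurred in 7 of the 8 genes, all but Oaz1, with 4 matches in Odc1, and in 35.63% of all windows. The GC box was chosen after the values had been seen. Some genes have more than 1 window, so these counts of genes cannot be set directly against shares of windows. A match describes these letters and is not evidence of binding.

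Amd1 (chr10:40287458-40302186, − strand), the S-adenosylmethionine decarboxylase that supplies the aminopropyl groups, was the lowest of the group, with 44 to 69 counts in Vehicle and 28 to 43 in AG636. These counts corresponded to 10.1, 6.76, 8.05 and 10.2 CPM in Vehicle and 5.60, 4.47, 5.43 and 6.22 CPM in AG636. The groups did not overlap, but the highest AG636 and the lowest Vehicle sample lay close together. The means were 8.76 ± 1.66 and 5.43 ± 0.723 CPM, a log2 fold change of −0.67 (95% interval −1.13 to −0.21) that did not pass (adjusted p = 0.0562). Amd1 has near-identical copies, among them Amd2 with 36 counts over all samples against 373 for Amd1, and how the authors assigned reads mapping to several places was not stated. With the counts of these copies added, the difference was −0.74 and passed (adjusted p = 0.0240). Without Vehicle sample 2, the lowest of its group, it was −0.79 and passed (adjusted p = 0.0476). Amd1 was called in only 4 of the 20 alternative fits, and without Vehicle sample 1 it was −0.60 (adjusted p = 0.139).

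Srm (ENSMUSG00000006442, chr4:148591503-148594993, + strand), the spermidine synthase, showed the largest fold change and the smallest p of the 10 genes. The Vehicle samples were nearly the same, at 193, 197, 199 and 199 CPM, and the AG636 samples were 85.8, 70.7, 97.8 and 122 CPM. Even the highest AG636 sample, sample 4, lay far below the lowest Vehicle sample. Srm fell from 197 ± 2.87 to 94.1 ± 21.6 CPM (SD, n = 4), to 46.9% of Vehicle (log2 fold change −1.09, SE 0.14, adjusted p = 0.00194). It ranked 42 of 10911 genes by p, and 0.770% of the tested genes had a more negative fold change. The coefficient of variation was 1.45% in Vehicle and 23.0% in AG636, so the size of the fall differed among the AG636 samples.

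Sms (chrX:157443855-157492287, − strand), the spermine synthase, acts on the product of Srm. Its level was 98.5, 104, 97.0 and 92.7 CPM in Vehicle and 58.6, 74.2, 93.7 and 72.1 CPM in AG636. AG636 sample 3 lay among the Vehicle samples and the other AG636 samples below them. The log2 fold change was −0.41 (SE 0.13, 95% interval −0.69 to −0.13) and narrowly missed the threshold (adjusted p = 0.0523). Sms was called in only 3 of the 20 alternative fits, and without Vehicle sample 2 it was −0.39 (adjusted p = 0.123). It passed without AG636 sample 3, the highest of its group (−0.53, adjusted p = 0.0102). It also passed by DESeq2 (−0.37, adjusted p = 0.0445) and with sample quality weights (−0.46, adjusted p = 0.0187). The ratio of Srm to Sms reads within a library, which needs no scaling, was 1.90 to 2.15 in Vehicle and 0.953 to 1.69 in AG636. This ratio was chosen after the values had been seen and carries no test.

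**Figure D2:**
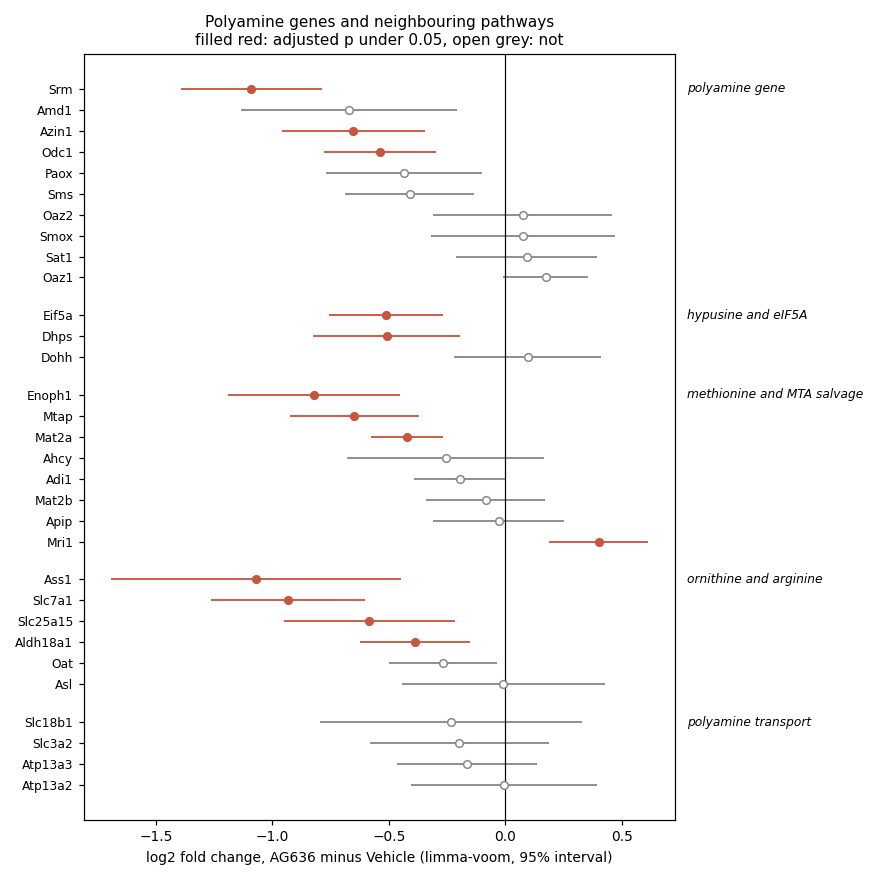
Log2 fold change (AG636 minus Vehicle) with its 95% interval from limma-voom, for the 10 polyamine genes and the 21 tested genes of neighbouring pathways, with called genes in filled red. Srm lies farthest to the left among the polyamine genes at −1.09, and Mri1 at 0.40 is the only called gene on the right.

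The antizymes bind ornithine decarboxylase and send it to the proteasome. Their proteins are made only when the ribosome slips by a base at a stop codon within the reading frame, which polyamines promote. This site is shown for both antizymes because it is the feature that ties their translation to polyamine level. In the GENCODE M21 coding annotation the reading frame skips 1 base, the first base of the stop codon in capitals.
Oaz1, chr10:80828283-80828309, + strand: cggtggtgctccTGAtgtccctcaccc
Oaz2, chr9:65686260-65686286, + strand: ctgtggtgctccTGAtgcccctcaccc
The windows of both genes were the same at 25 of 27 bases. The skipped base lies at position 80828295 on chromosome 10 for Oaz1 and at position 65686272 on chromosome 9 for Oaz2. Counts of transcripts carry no information on whether this step took place.

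Oaz1 (chr10:80826656-80829290, + strand), the main antizyme, was the most abundant of the group. Since the library method yields about a single tag per transcript, CPM is compared between genes here without division by length. Oaz1 ranked 58 of the 10911 tested genes by level, whereas Odc1 ranked 392 and Amd1 8713. Its level was 1366, 1187, 1249 and 1248 CPM in Vehicle and 1397, 1512, 1482 and 1305 CPM in AG636, and the groups overlapped through Vehicle sample 1. The log2 fold change was 0.17 (95% interval −0.01 to 0.36, adjusted p = 0.185). All 4 AG636 samples were above the Vehicle mean.

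Oaz2 (chr9:65668001-65690300, + strand), a less abundant antizyme, ranged from 22.4 to 37.6 CPM in Vehicle and from 28.8 to 38.3 CPM in AG636. Vehicle sample 4 was the low value and the other Vehicle samples were within 36.1 to 37.6 CPM. The log2 fold change was 0.07 (95% interval −0.31 to 0.46, adjusted p = 0.808), and without Vehicle sample 4 it was −0.09.

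Azin1 (ENSMUSG00000037458, chr15:38487427-38519266, − strand) encodes the antizyme inhibitor, an enzymatically inactive relative of ornithine decarboxylase that binds antizyme and so frees the enzyme. It was at 67.7, 58.6, 61.3 and 80.6 CPM in Vehicle and at 47.9, 34.8, 38.9 and 48.9 CPM in AG636. The groups did not overlap. Azin1 fell from 67.1 ± 9.84 to 42.6 ± 6.87 CPM (SD, n = 4), to 63.6% of Vehicle (log2 fold change −0.65, SE 0.14, adjusted p = 0.0132). An antisense gene, Gm49077, shares 358 exonic bases with it and held 2 counts over all samples.

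Set against Oaz1 in the same library, both Odc1 and Azin1 gave lower read ratios in every AG636 sample. The Odc1 to Oaz1 ratio was 0.289, 0.350, 0.325 and 0.350 in Vehicle and 0.200, 0.185, 0.161 and 0.268 in AG636. The Azin1 to Oaz1 ratio was 0.0490 to 0.0646 in Vehicle and 0.0230 to 0.0374 in AG636. These ratios were chosen after the values had been seen and carry no test, and they show unequal change within a library without saying which gene moved.

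**Figure D3:**
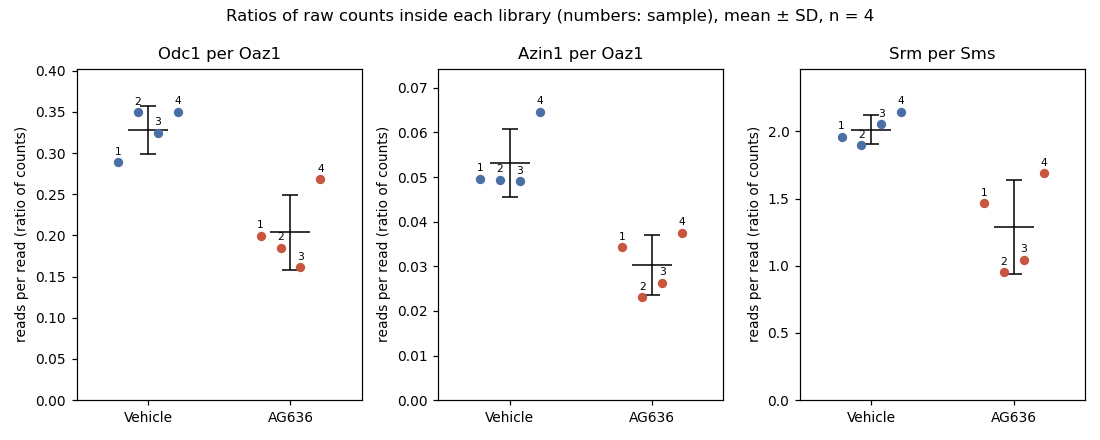
Ratios of raw read counts within each library (linear axes from 0, reads of the first gene per read of the second), with points for samples, numbered within their group, and bars for the mean ± SD of 4 samples. In each panel the 4 AG636 samples lie below the 4 Vehicle samples, with AG636 sample 4 the highest of its group.

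In catabolism no gene passed the test. Sat1 (chrX:155213132-155216449, − strand), the acetyltransferase that starts the return from spermine and spermidine, was at 37.1 ± 5.63 CPM in Vehicle and 39.4 ± 4.94 CPM in AG636. Its log2 fold change was 0.09 (95% interval −0.21 to 0.40, adjusted p = 0.691), and without Vehicle sample 4, the lowest at 28.9 CPM, it was −0.0048. Smox (chr2:131491496-131525922, + strand), which oxidises spermine directly, was at 26.5 ± 2.56 and 28.7 ± 7.92 CPM, with AG636 samples at 21.8, 38.8, 23.0 and 31.1 CPM on both sides of the Vehicle range. Its log2 fold change was 0.08 (95% interval −0.32 to 0.47, adjusted p = 0.808), and without AG636 sample 2 it was −0.08.

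Paox (chr7:140115799-140137224, + strand), the oxidase that acts on the acetylated polyamines, was the only catabolic gene with a negative fold change. It was at 27.4, 23.4, 24.0 and 25.7 CPM in Vehicle and at 14.2, 17.7, 23.1 and 20.4 CPM in AG636, without overlap but with AG636 sample 3 just below the lowest Vehicle sample. The log2 fold change was −0.43 (95% interval −0.77 to −0.10) and did not pass (adjusted p = 0.0809). Without AG636 sample 3, the highest of its group, it was −0.54 and passed (adjusted p = 0.0376). This was the only 1 of the 20 alternative fits that called Paox, and without Vehicle sample 1 it was −0.39 (adjusted p = 0.184). Paox shares 142 exonic bases with Echs1 on the opposite strand, which held 1802 counts against 1152 for Paox. Whether strand was used in counting was not stated, so reads of these 2 genes may not be told apart.

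The polyamine genes did not follow a single order among the AG636 samples. Relative to the Vehicle mean on the log2 CPM scale, Srm differed most in AG636 sample 2 (−1.47) and least in sample 4 (−0.69), Odc1 most in sample 3 (−0.79) and least in sample 4 (−0.24), and Azin1 most in sample 2 (−0.93) and least in sample 4 (−0.44). Sms and Paox differed most in sample 1 (−0.74 and −0.81) and least in sample 3 (−0.06 and −0.11). The 3 genes that fell were thus all least changed in AG636 sample 4, although Azin1 was nearly the same in sample 1 (−0.47). Amd1, which was not called, was also least changed in sample 4 (−0.46).

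**Figure D4:**
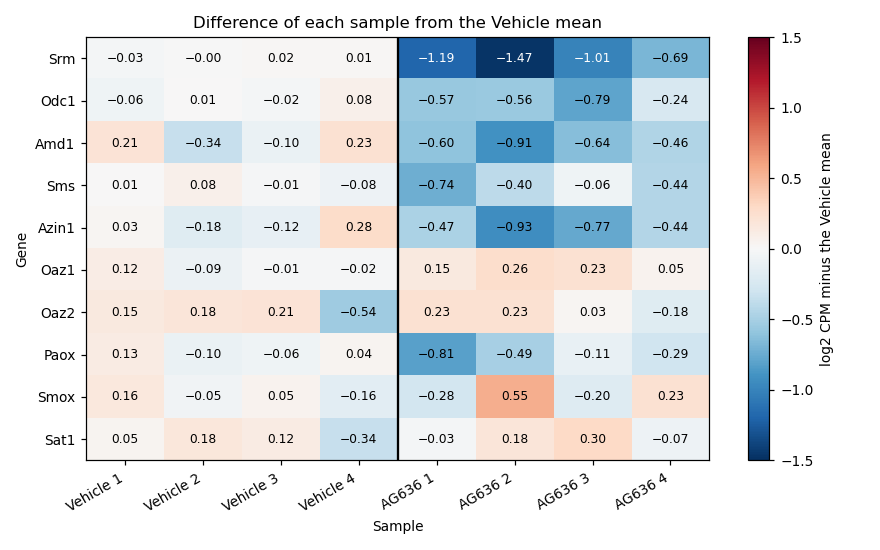
Log2 CPM of each polyamine gene (rows) in each sample (columns) minus the mean of the 4 Vehicle samples, on a colour scale from blue (lower) to red (higher). The blue block in the AG636 columns covers Srm, Odc1, Amd1, Sms, Azin1 and Paox, and reaches −1.47 for Srm in AG636 sample 2, while Sms and Paox stay near the Vehicle mean in AG636 sample 3.

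Of 34 neighbouring genes in 5 lists, 21 were tested and 10 were called, 9 lower and 1 higher (median log2 fold change −0.26). Over all tested genes 14.0% were called, 8.49% lower and 5.47% higher, with a median of −0.01. In the hypusine list, 2 of 3 tested genes fell and 0 rose, and 1 of these calls was lost when single libraries were left out. Eif5a, the translation factor that carries hypusine, fell from 1012 ± 73.7 to 714 ± 108 CPM (log2 fold change −0.51, SE 0.11, adjusted p = 0.0136). Its samples were 970, 975, 981 and 1123 CPM in Vehicle and 603, 699, 690 and 863 CPM in AG636. Dhps, which transfers the spermidine part onto eIF5A, fell from 22.1 ± 3.22 to 15.5 ± 1.41 CPM (−0.51, SE 0.14, adjusted p = 0.0394), whereas Dohh, which completes hypusine, had a fold change of 0.10 (adjusted p = 0.694). The call of Dhps was lost when any of Vehicle samples 1, 2 and 4 or AG636 samples 1, 3 and 4 was left out (adjusted p = 0.0648 to 0.106). The paralogue Eif5a2 had 0 to 4 counts.

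In the list of methionine and methylthioadenosine (MTA), the by-product of spermidine and spermine synthesis, 3 of 8 tested genes fell and 1 rose, against 8.49% and 5.47% of all tested genes. Mat2a, which makes S-adenosylmethionine, was at 770, 817, 810 and 792 CPM in Vehicle and 577, 607, 604 and 591 CPM in AG636, a narrow spread in both groups (−0.42, SE 0.07, adjusted p = 0.00481). Mtap, the phosphorylase that cleaves MTA, fell from 147 ± 7.06 to 94.7 ± 18.2 CPM (−0.65, SE 0.13, adjusted p = 0.00898). Enoph1, a later enzyme of the same salvage, fell from 18.6 ± 2.07 to 10.5 ± 2.04 CPM (−0.82, SE 0.17, adjusted p = 0.0110). Mri1, the isomerase between Mtap and Enoph1, rose from 54.3 ± 4.76 to 71.7 ± 4.97 CPM (0.40, SE 0.10, adjusted p = 0.0212). It was named after its values were seen, and its call was lost without Vehicle sample 1, 2 or 3 (adjusted p = 0.0501 to 0.0540). The called steps of this salvage route thus differed in sign, with the rise resting on Mri1 alone.

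In the ornithine and arginine list, 4 of 6 tested genes fell and 0 rose, against 8.49% and 5.47% of all tested genes, and 3 of the 4 calls were lost when single libraries were left out. Slc7a1, a carrier of arginine and ornithine into the cell, was at 91.9, 86.4, 97.5 and 117 CPM in Vehicle and at 45.9, 39.7, 60.3 and 61.1 CPM in AG636 (−0.93, SE 0.15, adjusted p = 0.00454). Ass1, an enzyme of arginine synthesis, fell from 10.7 ± 2.21 to 5.24 ± 2.11 CPM (−1.07, SE 0.28, adjusted p = 0.0308). Aldh18a1, which starts ornithine and proline synthesis from glutamate, fell from 79.6 ± 4.50 to 61.2 ± 8.53 CPM (−0.39, SE 0.11, adjusted p = 0.0372), and Slc25a15, the mitochondrial ornithine carrier, named after its values were seen, fell from 22.7 ± 2.57 to 15.2 ± 3.02 CPM (−0.58, SE 0.17, adjusted p = 0.0407). The Ass1 call was lost without Vehicle sample 2, 3 or 4 or AG636 sample 1 or 2 (adjusted p = 0.0662 to 0.0859), that of Slc25a15 without the same libraries (0.0733 to 0.108), and that of Aldh18a1 without any 1 Vehicle sample or AG636 sample 2 or 4 (0.0686 to 0.100). Arginase genes Arg1 and Arg2 had 0 counts in all 8 libraries, which allows up to 3 counts or 0.419 to 0.490 CPM in each library (counting error only).

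In the transport list, 0 of 4 tested genes passed. Atp13a3, a pump that takes up polyamines and the gene of this list with the smallest p, was at 248 ± 39.9 CPM in Vehicle and 221 ± 32.0 CPM in AG636 (−0.16, 95% interval −0.46 to 0.14, adjusted p = 0.456). None of the 5 paralogues of the polyamine genes reached the filter, among them Amd2 with 5 to 7 counts in Vehicle and 2 to 4 in AG636.

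The genes whose profile over the 8 samples lay nearest to those of the 3 called polyamine genes were sought among the 5261 tested genes whose average log2 CPM was 5 or more. Likeness was the root mean square difference of log2 CPM after each gene was centred on its own mean. The nearest to Srm were Slc1a5, a glutamine carrier (0.0831), Cd3eap, a subunit of RNA polymerase I (0.0961), and Hsph1, a heat shock protein (0.0969). The nearest to Odc1 were Eif3g, a translation initiation subunit (0.0548), Psme3, a proteasome activator (0.0570), and Bysl, a factor of small ribosomal subunit assembly (0.0673). The nearest to Azin1 were Rrp9, a protein of ribosomal RNA processing (0.0853), Abce1, a ribosome recycling factor (0.0854), and Ddx18, an RNA helicase (0.0941). The profiles span both groups, so genes near one that fell were themselves lower by this choice. Their log2 fold changes ran from −0.53 (Psme3) to −1.16 (Hsph1). The share of such roles among all lowered genes was not tested. Like profiles in 8 samples are a description of level and say nothing of shared control.

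**Figure D5:**
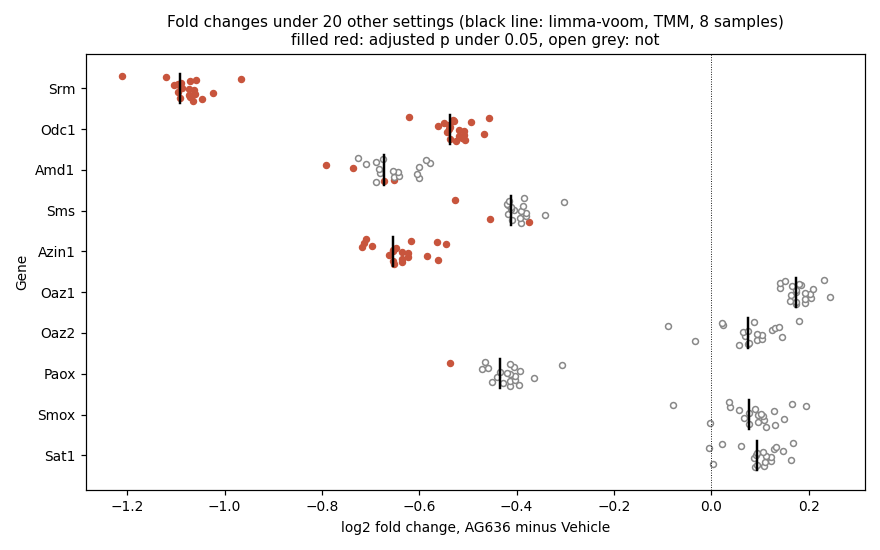
Log2 fold change (AG636 minus Vehicle) of each polyamine gene under 20 other settings of the fit, including each sample left out in turn, with red filled points where the adjusted p was under 0.05 and a black line at the value given in the text. All points of Srm, Odc1 and Azin1 are red, those of Sms, Amd1 and Paox are red in 3, 4 and 1 of the settings, and those of Oaz2, Smox and Sat1 lie on both sides of 0.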

How the data were processed

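RNA of sorted RUNX1-RUNX1T1 AML cells was sequenced with a QuantSeq 3′ kit, which reads the ends of polyadenylated transcripts. The authors deposited raw counts of reads for each gene, made with cutadapt, HISAT2 on mm10 (GRCm38) and featureCounts. The submitters' processing notes give cutadapt 1.9.1, HISAT2 2.0.4 and Subread 1.5.0-p3. The use of strand and of reads mapping to several places was not given in the sources used here. Symbols came from a name table that left 115 identifiers without a symbol. Each count column matched the title of 1 sample.

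Samples were grouped by title. Genes were kept by filterByExpr (minimum count 10), TMM factors scaled the libraries, and the difference between AG636 and Vehicle was fitted by voom and limma (version 3.58.1) under R 4.3.3, with edgeR 4.0.16 for filter and factors. All 8 samples entered a single fit without covariates. Tests were two-sided with Benjamini-Hochberg adjustment over all 10911 genes and a threshold of 0.05. Levels are CPM on TMM-scaled library sizes, except that marker lists are CPM on total counts. Depth was 6120030 to 7162036 counts per sample, so genes near 10 counts carry a large counting error. The script was tested on simulated data.

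The polyamine genes and all lists were chosen with earlier results of these data known. Named genes were the 10 members, up to 3 called genes with the smallest p in each pathway list (otherwise its smallest-p gene), and 3 nearest profiles for each called member. Alternatives were limma-trend, DESeq2 (1.42.0), the quasi-likelihood test of edgeR, quality weights for samples, library sizes that were unscaled or scaled by upper-quartile or RLE factors, no filter, a filter of 10 counts in all samples, removal of mitochondrial genes, a replicate block, annotated gene copies added, each sample left out, an adjusted p under 0.01 and a log2 fold change of at least 1. Sequences came from RefSeq promoter windows and the GENCODE M21 transcripts, both on GRCm38.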

Additional observations from a re-analysis of the deposited data

Results flagged for a closer look

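Among 44 combinations of a group with a gene or with the total counts, 3 had an outlying sample, and chance gives about 2.2. A sample was outlying if its distance from the nearest other sample, relative to the group's whole range, exceeded Dixon's 95% critical value for 4 samples. All 3 involved Vehicle sample 4. For Oaz2 it was at 4.50 log2 CPM, with the other Vehicle samples at 5.19 to 5.24. For Eif5a it was at 10.13 log2 CPM, above the others at 9.92 to 9.94. For Mri1 it was at 5.57 log2 CPM, below the others at 5.81 to 5.84. Without Vehicle sample 4, Eif5a and Mri1 were still called and Oaz2 was not.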

How the results depend on the processing

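Odc1, Srm and Azin1 were called lower under all 20 alternative fits. The count of polyamine genes called was 3. It was 5 by DESeq2, 3 to 5 with each sample left out in turn (5 without AG636 sample 3), 1 at an adjusted p under 0.01 and 1 with a log2 fold change of at least 1. Of the pathway genes, 10 were called. This became 6 with no filter, 5 to 9 with a sample left out (5 without Vehicle sample 2, 6 without Vehicle sample 3 or 4), 3 at 0.01 and 1 with a log2 fold change of at least 1. Over all genes, 1523 were called, against 435 at 0.01, 216 with at least 1 log2 unit of change, and 688 to 1706 with a sample left out (798, 918, 688 and 1010 without Vehicle samples 1 to 4). Lower genes were 60.8% of the calls, and 38.3% with library size alone, which shifted the median log2 fold change of all genes from −0.01 to 0.06. Odc1, Srm and Azin1 were −0.47, −1.02 and −0.59 with library size alone. Reversed signs were confined to 3 genes that were never called: with sample quality weights Oaz2 was −0.0347 and Smox −0.0022, and leaving out samples gave −0.0048 to 0.17 for Sat1, −0.0882 to 0.18 for Oaz2 and −0.0781 to 0.19 for Smox. The cause was not tested.

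Samples shared only a replicate number. Deviations of same-numbered samples correlated at −0.14, 0.01, 0.20 and 0.14 across genes, and not every sample correlated best with its own number. With the replicate block, 1446 genes were called over all genes, Odc1, Srm and Azin1 were −0.54, −1.09 and −0.65 and still called, and Dhps and Aldh18a1 were not called. With 28 to 69 counts per sample, Amd1 had the fewest counts of the 10 polyamine genes. Among the pathway genes tested, Ass1 had 22 to 86 and Slc18b1 22 to 42.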
